A study of Mus musculus with 20 samples.

Results

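The genes of the unfolded protein response and the integrated stress response were followed in endothelial cells of the mouse ear. They were taken as a fixed list of 35 gene symbols: chaperones and folding enzymes of the endoplasmic reticulum (ER), the translocon, ER-associated degradation, the stress sensors with their transcription factors, and targets of the ATF4 branch. Of the 35, 34 had a probe set that carried their symbol alone, and 33 of those 34 passed the filter on low values, out of 14178 genes tested on 14886 probe sets. Each of the 33 lay above the median of every one of the 20 arrays, so none passed through 1 group alone. Pdia4 was left out because its probe set carried a second symbol. Derl3, a Derlin of the degradation pathway, lay above the array median on 3 of 20 arrays and was not tested with the rest.

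Cells sorted as CD31+CD45-Ter119- from collagenase-digested ears were profiled on Affymetrix gene arrays, 1 array per sample, from 1 ng of RNA. The mice were controls or carried an inducible Notch1 intracellular domain (NICD), a constitutively active fragment of the Notch1 receptor, at the Rosa26 locus. The genotype label of the NICD mice names Pdgfb-CreERT2 with R26-NICD, whereas the protocol names a CDH5-iCre transgene with RosaNICD/NICD. The promoter that drove the recombinase is therefore not settled by the labels, and the genotype of the controls is given as control only. The protocol gives 5 tamoxifen injections, skin sensitisation with the hapten DNFB on days 0 and 1, a challenge on the ear on day 5 and harvest after 24 hours. By their titles, the control mice gave 6 vehicle and 6 DNFB arrays, and the NICD mice 4 of each. The age of the mice, and whether ears were pooled, are not stated. The labels do not say whether the mice of the vehicle ears were sensitised, or whether vehicle and DNFB ears came from the same mice. The p-values therefore measure the spread between these arrays.

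The ER folds secreted and membrane proteins. When unfolded protein accumulates there, the sensors IRE1, PERK and ATF6 signal to the nucleus. IRE1 splices the Xbp1 messenger, ATF6 is cleaved into a transcription factor, and PERK phosphorylates eIF2, which lowers general translation and raises translation of ATF4. ATF6 and XBP1 act on genes for chaperones, translocation and degradation, and ATF4 on genes for amino acid supply and for the feedback of the stress response. PERK shares eIF2 with kinases that sense other stresses, such as a shortage of amino acids, and that shared part is called the integrated stress response. Endothelial cells secrete matrix, coagulation factors and signalling proteins through the ER.

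These promoter sequences are shown because they hold the letters through which these branches are known to reach their genes. They come from RefSeq on GRCm38.p6 and are written 5′ to 3′ on the gene's own strand, ending at the base before the annotated start. The fixed letters of each match are in capitals. Hspa5, Creld2 and Pdia6 carry the ER stress element, which is CCAAT, then 9 bases of any kind, then CCACG, and is bound by ATF6 together with NF-Y. Herpud1 carries the ER stress element II, which is ATTGG, 1 base of any kind and CCACG, and a C/EBP-ATF response element, TGATGNAA. Asns and Chac1, targets of ATF4, carry the C/EBP-ATF response element. A match on the other strand reads in reverse complement, as in Creld2 and Chac1.
Hspa5 (chr2:34771940-34772089, plus strand): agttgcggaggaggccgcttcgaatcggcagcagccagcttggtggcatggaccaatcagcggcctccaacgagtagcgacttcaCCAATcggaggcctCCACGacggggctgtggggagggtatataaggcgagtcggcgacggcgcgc
Creld2 (chr15:88819496-88819645, plus strand): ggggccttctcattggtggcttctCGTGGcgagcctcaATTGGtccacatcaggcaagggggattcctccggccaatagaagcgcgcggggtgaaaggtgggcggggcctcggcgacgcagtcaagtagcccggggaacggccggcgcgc
Pdia6 (chr12:17266439-17266588, plus strand): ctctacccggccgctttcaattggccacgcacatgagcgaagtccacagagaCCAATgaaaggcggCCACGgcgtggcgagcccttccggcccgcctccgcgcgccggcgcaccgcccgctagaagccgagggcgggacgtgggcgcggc
Herpud1 (chr8:94386279-94386428, plus strand): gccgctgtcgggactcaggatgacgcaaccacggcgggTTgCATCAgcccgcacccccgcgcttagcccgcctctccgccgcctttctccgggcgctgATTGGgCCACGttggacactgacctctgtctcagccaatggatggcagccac
Asns (chr6:7693210-7693309, minus strand): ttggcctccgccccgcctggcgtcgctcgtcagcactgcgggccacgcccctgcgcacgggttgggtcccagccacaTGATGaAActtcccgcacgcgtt
Chac1 (chr2:119351032-119351241, plus strand): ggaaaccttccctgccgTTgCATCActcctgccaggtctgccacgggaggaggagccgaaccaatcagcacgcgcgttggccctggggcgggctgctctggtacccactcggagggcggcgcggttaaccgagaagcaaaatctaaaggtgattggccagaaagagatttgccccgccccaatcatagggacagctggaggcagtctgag

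A promoter window of 250 bases before the start was found for 30 of the 35 members. Derl1, Atf6, Hyou1, Sec61a1 and Manf had none. Both strands were searched for exact matches. The ER stress element stood in the windows of 9 of the 30 members (30.0%), namely Calr, Canx, Creld2, Derl3, Dnajc3, Hsp90b1, Hspa5, Pdia6 and Syvn1. It stood in 0.113% of all 32851 windows. In Hspa5 its bases ran from -65 to -47, counted back from the start, and in Hsp90b1 it occurred at 2 places, from -212 to -194 and from -107 to -89. The ER stress element II was found in 1 member, Herpud1, and in 0.0304% of all windows. The C/EBP-ATF response element was found in 3 members, Asns, Chac1 and Herpud1, and in 3.45% of all windows. The unfolded protein response element core TGACGTGG was in 0 of the 30 members and in 0.563% of all windows. None of the matches in members overlapped another. A match describes letters and is no measured binding site.

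Before the results, 3 features of the arrays bear on them. Genotype, sex and array scale coincided. Xist, which is expressed from the inactive X chromosome, did not exceed 3.16 on any control array and was at least 8.47 on every NICD array. The median of all probe sets was at least 3.87 on each control array and at most 3.62 on each NICD array. Effects of NICD, of sex and of the array set cannot be told apart. The labels of NICD vehicle replicate 4 conflict, since the title says vehicle and the description says DNFB. The title was followed. The summed level (log2) of 10 neutrophil markers was 6.73 on this array and at least 8.96 on the NICD DNFB arrays. Its values of Asns (6.09) and Atf6 (8.70) also lay below those of every DNFB array, although its Atf6 was the highest of the NICD vehicle arrays. Asns and Atf6 are members tested with this array, so their values are no independent check of its label. Finally, markers of other cell types moved with DNFB, as given beside the results. The 12 pan-endothelial markers averaged above the array median in all 4 groups, and their summed level (log2) ran from 14.11 to 14.32 in control vehicle arrays and from 13.60 to 13.88 in control DNFB arrays. In a sorted population, a change in the makeup of cells and a change in RNA per cell cannot be told apart. The Notch1 probe set, which does not separate the transgene from the normal gene, averaged from 9.71 to 9.82 in the 4 groups.

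In control mice, DNFB raised most of the ER folding machinery, the translocon, Atf6 and Asns. Of the classical stress outputs, Chac1 rose, while Ddit3, Trib3 and Ppp1r15a did not pass the test. Of the 33 members, 22 were higher and 1, Herpud1, was lower at an adjusted p under 0.05 (66.7% and 3.03% of the members). Of all probe sets tested, 23.7% were higher and 23.6% lower. The median log2 difference of the members was 0.43, and that of all probe sets 0.00. In NICD mice, 20 of the 33 members were higher and 1, again Herpud1, was lower, beside 20% and 18.1% of all probe sets. Their median log2 difference was 0.45, and that of all probe sets 0.01. All 20 members that rose in NICD mice were among the 22 that rose in control mice, and Dnajc3 and Chac1 made up the rest. The 2 comparisons use different arrays but were fitted with 1 shared spread.

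**Figure D1:**
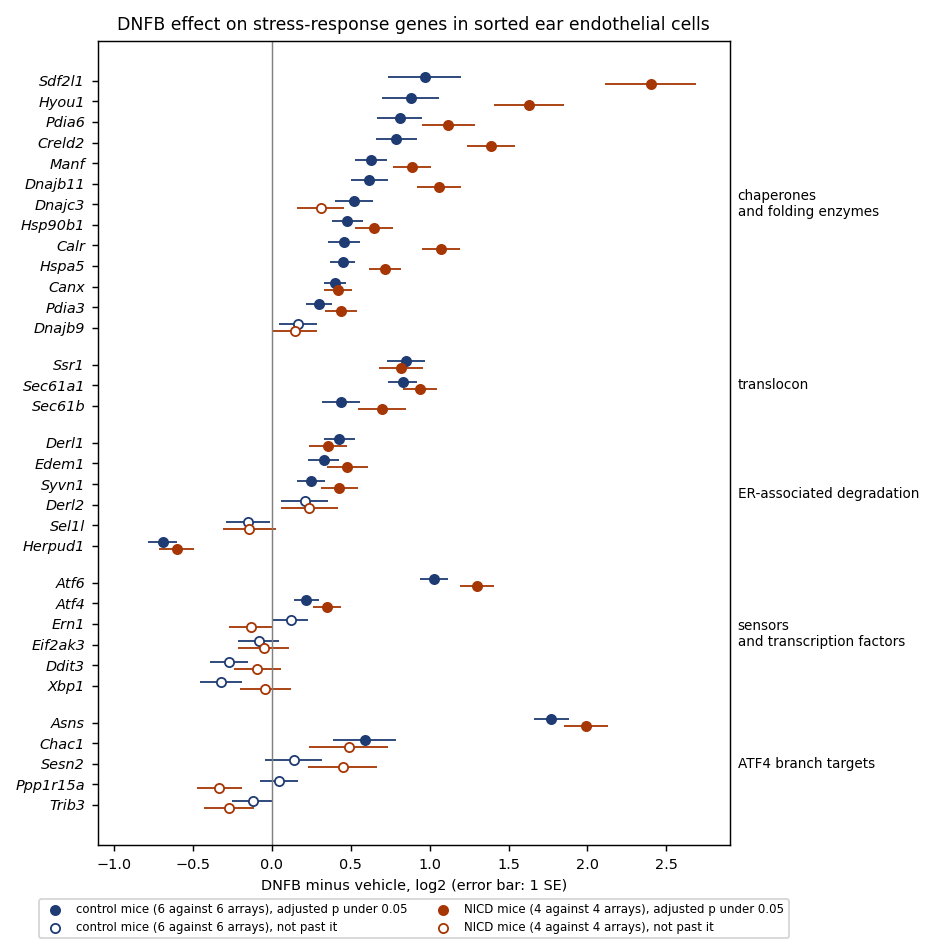
Log2 difference, DNFB minus vehicle, for the 33 genes tested, ordered by role, in control mice (blue, 6 against 6 arrays) and NICD mice (brown, 4 against 4 arrays). Bars are 1 SE, filled points passed an adjusted p of 0.05, and every chaperone lies to the right of 0 whereas Herpud1 lies to its left in both genotypes.

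Among the chaperones and folding enzymes, 12 of 13 rose in control mice and 11 of 13 in NICD mice, with median log2 differences of 0.52 and 0.89. Hspa5 encodes BiP, the main ER chaperone, which also holds the 3 sensors inactive. It read from 9.75 to 10.14 (median 10.03) in control vehicle arrays and from 10.29 to 10.51 (median 10.45) in control DNFB arrays. The groups did not overlap, and the difference was 0.45 ± 0.08 (log2 ± SE, 1.36-fold, adjusted p = 0.000146). In NICD mice Hspa5 read 8.90, 9.12, 9.17 and 9.11 in vehicle arrays and 9.71, 9.84, 9.76 and 9.88 in DNFB arrays. All 4 DNFB arrays lay above all 4 vehicle arrays, with a difference of 0.72 ± 0.10 (1.65-fold, adjusted p = 9.37e-06).

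Sdf2l1, a small co-factor of BiP in the folding complex of the ER, had the largest rise of a chaperone in both genotypes. It read from 6.51 to 7.11 (median 6.77) in control vehicle arrays and from 7.10 to 8.77 (median 7.48) in control DNFB arrays. The ranges overlapped slightly, and replicate 6 of the DNFB arrays held the highest value. The difference was 0.97 ± 0.23 (1.96-fold, adjusted p = 0.00185). In NICD mice it read 5.73, 5.82, 6.30 and 5.29 in vehicle arrays and 7.90, 8.51, 8.52 and 7.82 in DNFB arrays. The NICD groups lay more than 1 log2 unit apart, with a difference of 2.40 ± 0.29 (5.29-fold, adjusted p = 1.44e-06). No exact match of the 4 motifs stood in its promoter window.

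Hyou1, a large ER chaperone that releases nucleotide from BiP, read from 6.16 to 7.12 (median 6.64) in control vehicle arrays and from 7.15 to 8.04 (median 7.51) in control DNFB arrays. The groups were separate by a narrow gap. Its NICD values were 5.69, 5.69, 6.24 and 5.74 in vehicle arrays and 7.44, 7.32, 8.02 and 7.12 in DNFB arrays. The NICD vehicle replicate 3 and DNFB replicate 3 were the highest of their groups, and the groups did not overlap. Its differences were 0.88 ± 0.18 in control mice and 1.63 ± 0.22 in NICD mice (adjusted p = 0.000396 and 6.06e-06). Creld2, a disulfide isomerase that is itself induced by ER stress, read from 8.09 to 8.80 (median 8.54) in control vehicle arrays and from 8.91 to 9.58 (median 9.34) in control DNFB arrays. Its NICD arrays read 8.02, 8.0, 8.16 and 8.04 against 9.25, 9.59, 9.60 and 9.35. The DNFB arrays lay above the vehicle arrays in both genotypes, with differences of 0.79 ± 0.13 and 1.39 ± 0.15 (adjusted p = 2.84e-05 and 6.21e-07).

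The other chaperones that rose in both genotypes were Hsp90b1, Dnajb11, Pdia3, Pdia6, Calr, Canx and Manf. Pdia6, a disulfide isomerase, rose by 0.81 ± 0.14 in control mice and 1.12 ± 0.17 in NICD mice. Dnajb11, a J-domain partner of BiP, rose by 0.62 ± 0.12 and 1.06 ± 0.14. Manf, a secreted ER protein that binds BiP, rose by 0.63 ± 0.10 and 0.89 ± 0.12. Calr and Canx encode calreticulin and calnexin, the lectins that hold newly made glycoproteins for folding. Calr rose by 0.46 ± 0.10 and 1.07 ± 0.12, whereas Canx rose by 0.40 ± 0.07 and 0.42 ± 0.09. Hsp90b1, the ER form of HSP90, rose by 0.48 ± 0.10 and 0.65 ± 0.12, and Pdia3, which joins disulfides of glycoproteins, by 0.30 ± 0.08 and 0.44 ± 0.10. The adjusted p-values of these genes ran from 2.46e-05 (Manf) to 0.00365 (Pdia3) in control mice. Dnajc3, an inhibitor of eIF2 kinases and a partner of BiP, rose in control mice by 0.52 ± 0.12 (adjusted p = 0.0012). In NICD mice its difference was 0.31 ± 0.15 (adjusted p = 0.108), and without NICD vehicle replicate 1 it was 0.44 (adjusted p = 0.0204). Dnajb9, a J-domain protein that returns BiP to IRE1, did not pass the test in either genotype, with 0.17 ± 0.12 and 0.15 ± 0.14 (adjusted p = 0.255 and 0.449).

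**Figure D2:**
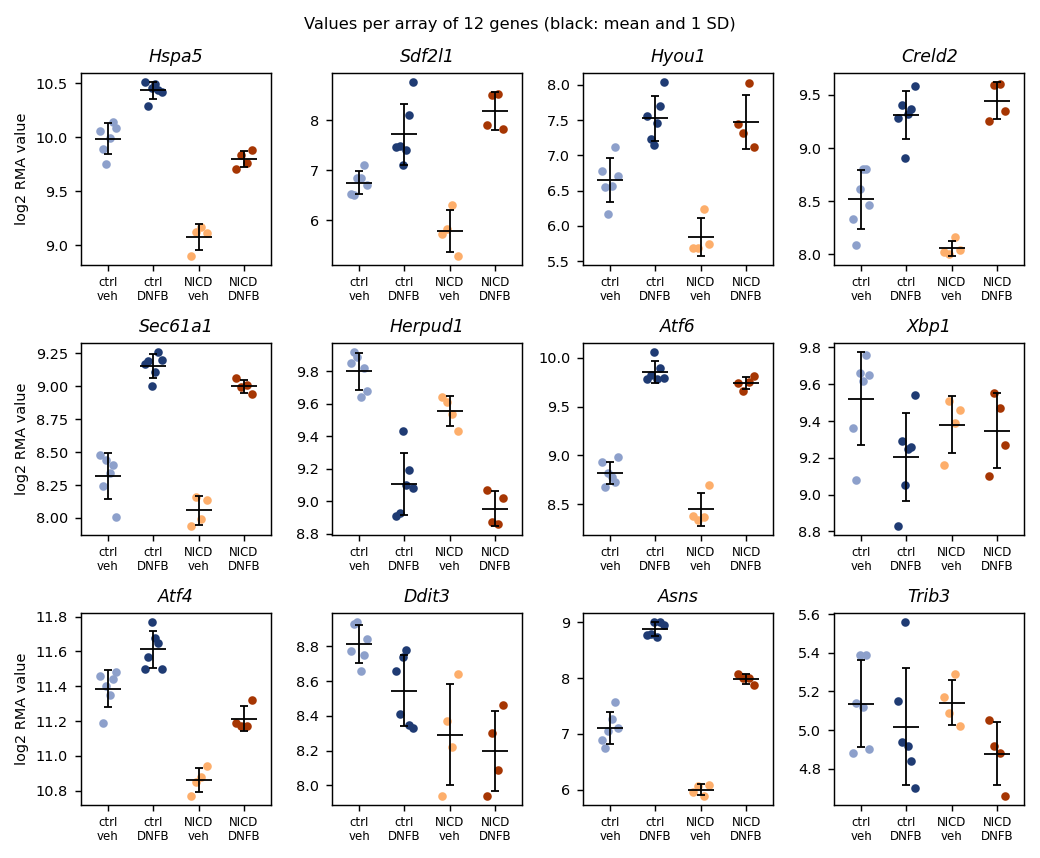
Log2 RMA values of 12 genes on each of the 20 arrays, by genotype (ctrl, NICD) and treatment (veh, DNFB), with the group mean and 1 SD in black. The vertical scale differs between panels; Atf6 and Asns show DNFB arrays wholly above vehicle arrays in both genotypes, Herpud1 shows the opposite, and the groups of Xbp1 and Trib3 overlap.

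The arrays did not contribute alike. Among the control DNFB arrays, replicate 6 was the highest for 8 of the 13 chaperones and replicate 3 the lowest for 8. The summed level (log2) of 10 neutrophil markers was 9.57 on replicate 6 and 8.71 on replicate 3. It was highest, at 10.89, on replicate 5, which held the highest value of 1 chaperone. Among the NICD DNFB arrays, replicate 3 was the highest for 6 chaperones and replicate 4 the lowest for 8, with neutrophil sums of 9.26 and 9.17.

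All 3 members of the translocon, the channel through which new proteins enter the ER, rose in both genotypes. Sec61a1, its pore subunit, read from 8.01 to 8.48 (median 8.37) in control vehicle arrays and from 9.0 to 9.26 (median 9.18) in control DNFB arrays. In NICD mice the values were 7.94, 8.16, 7.99 and 8.14 in vehicle arrays and 9.06, 8.99, 9.01 and 8.94 in DNFB arrays. Both pairs of groups stood clearly apart, with differences of 0.83 ± 0.09 and 0.94 ± 0.11 (adjusted p = 1.25e-07 and 7.02e-07). Ssr1, a subunit of the translocon-associated protein complex, rose by 0.85 ± 0.12 and 0.82 ± 0.14. Its second probe set gave 0.42 ± 0.10 and 0.51 ± 0.13. Sec61b, a small subunit of the channel, rose by 0.44 ± 0.12 and 0.70 ± 0.15, and its second probe set gave 0.75 ± 0.17 and 0.81 ± 0.21.

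The genes of ER-associated degradation, which sends misfolded proteins back to the cytosol, were counted likewise. Of 6 tested, 3 rose and 1 fell in each genotype. Of all probe sets, 23.7% and 20% rose and 23.6% and 18.1% fell, so 1 fall among 6 genes did not exceed that share. Herpud1, which organises the degradation complex around the ubiquitin ligase HRD1, read from 9.64 to 9.92 (median 9.84) in control vehicle arrays and from 8.91 to 9.43 (median 9.09) in control DNFB arrays. The NICD values were 9.64, 9.61, 9.54 and 9.43 in vehicle arrays and 9.07, 8.87, 8.86 and 9.02 in DNFB arrays. Every DNFB array lay below every vehicle array of its genotype. Herpud1 fell by 0.69 ± 0.09 in control mice and by 0.60 ± 0.11 in NICD mice (adjusted p = 3.47e-06 and 0.000273). It was the 1 member with both an ER stress element II and a C/EBP-ATF response element in its window.

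Edem1, a lectin that picks misfolded glycoproteins for degradation, rose by 0.33 ± 0.10 and 0.48 ± 0.13 (adjusted p = 0.0118 and 0.00481). Its second probe set averaged 2.82, below the filter, and gave 0.14 ± 0.14 and 0.05 ± 0.17. Derl1, a channel protein of the pathway, rose by 0.43 ± 0.10 and 0.36 ± 0.12 (adjusted p = 0.00127 and 0.0246). In NICD mice the rise of Derl1 was lost without any 1 of NICD DNFB replicates 1 or 2 or NICD vehicle replicates 1 or 3, with adjusted p from 0.064 to 0.0888, and after quantile normalization (adjusted p = 0.0638) or cyclic loess (adjusted p = 0.107), and with only the NICD arrays in the fit (adjusted p = 0.0599). Syvn1, which encodes HRD1 itself, rose by 0.25 ± 0.09 and 0.43 ± 0.12 (adjusted p = 0.0337 and 0.00607). In control mice the rise of Syvn1 was lost without any 1 of control DNFB replicates 1 to 3 or control vehicle replicates 2 to 5, with adjusted p from 0.0529 to 0.0886, and after cyclic loess (adjusted p = 0.0651). The same held with array weights, no filter or only the control arrays in the fit (adjusted p = 0.0727, 0.0627 and 0.0523). Sel1l, the partner of HRD1, gave -0.15 ± 0.14 and -0.14 ± 0.17, and Derl2 gave 0.21 ± 0.15 and 0.24 ± 0.18, and neither passed the test. Derl3 averaged 3.03 in control vehicle arrays and 3.23 in control DNFB arrays, and 3.44 and 3.32 in the NICD arrays, each mean below the array medians of its genotype.

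Among the sensors and transcription factors, Atf6 stood apart from the rest. It read from 8.68 to 8.98 (median 8.80) in control vehicle arrays and from 9.78 to 10.06 (median 9.80) in control DNFB arrays. In NICD mice it read 8.38, 8.34, 8.37 and 8.70 in vehicle arrays and 9.74, 9.66, 9.75 and 9.81 in DNFB arrays. The groups were far apart in both genotypes, and Atf6 rose by 1.03 ± 0.09 (2.05-fold, adjusted p = 6.47e-09) in control mice and by 1.30 ± 0.11 (2.45-fold, adjusted p = 1.34e-08) in NICD mice. The other sensors, Ern1 (IRE1) and Eif2ak3 (PERK), did not pass the test. Ern1 gave 0.12 ± 0.11 and -0.13 ± 0.14, and Eif2ak3 gave -0.08 ± 0.13 and -0.05 ± 0.16.

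Atf4 rose by 0.22 ± 0.08 in control mice, where its arrays read from 11.19 to 11.48 (vehicle) and from 11.50 to 11.77 (DNFB). Its values in NICD mice were 10.77, 10.85, 10.88 and 10.94 against 11.19, 11.17, 11.17 and 11.32, a rise of 0.35 ± 0.09. The groups did not overlap in either genotype, and the adjusted p-values were 0.0227 and 0.00566. The control call was lost without control DNFB replicate 3 (adjusted p = 0.0525) or control vehicle replicate 2 (adjusted p = 0.0586), with no filter (adjusted p = 0.0512) and with only the control arrays in the fit (adjusted p = 0.0539), and the NICD call after cyclic loess (adjusted p = 0.084). Xbp1 read from 9.08 to 9.76 (median 9.64) in control vehicle arrays and from 8.83 to 9.54 (median 9.26) in control DNFB arrays, which overlap. Its differences were -0.32 ± 0.13 (adjusted p = 0.0503) and -0.04 ± 0.16 (adjusted p = 0.893). After quantile normalization the control difference was -0.40 (adjusted p = 0.0125), without control vehicle replicate 2 it was -0.41 (adjusted p = 0.0104), and without control DNFB replicate 6 it was -0.39 (adjusted p = 0.0208). Cyclic loess gave -0.38 (adjusted p = 0.0154), and leaving out control vehicle replicate 1, NICD vehicle replicate 1 or NICD DNFB replicate 1 gave adjusted p from 0.0449 to 0.0493. With array weights, trended and robust variances or the stricter filter the adjusted p was 0.0258, 0.0276 and 0.0421. Ddit3, which encodes the pro-apoptotic factor CHOP, gave -0.27 ± 0.12 (adjusted p = 0.0752) and -0.09 ± 0.15 (adjusted p = 0.667), and after quantile normalization the first was -0.35 (adjusted p = 0.0212), after cyclic loess -0.33 (adjusted p = 0.034) and without control DNFB replicate 4 -0.32 (adjusted p = 0.0479), and with trended and robust variances its adjusted p was 0.0489. Splicing of Xbp1, cleavage of ATF6 and phosphorylation of eIF2 were not measured here.

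The targets of the ATF4 branch were led by Asns, which makes asparagine. It read from 6.75 to 7.57 (median 7.09) in control vehicle arrays and from 8.74 to 9.01 (median 8.88) in control DNFB arrays. The NICD arrays stood at 5.95, 6.07, 5.89 and 6.09 in vehicle arrays and 8.07, 8.0, 8.01 and 7.87 in DNFB arrays. The gap between the groups exceeded 1 log2 unit in both genotypes, and Asns rose by 1.77 ± 0.11 (3.41-fold, adjusted p = 1.85e-10) and by 1.99 ± 0.14 (3.97-fold, adjusted p = 2.47e-09).

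Of the other 4 targets of ATF4, 1 rose in control mice and 0 in NICD mice, beside 23.7% and 20% of all probe sets. With 4 genes, these counts do not set the targets apart from all probe sets. Chac1, which degrades glutathione, read from 5.11 to 6.07 (median 5.66) in control vehicle arrays and from 5.88 to 6.41 (median 6.28) in control DNFB arrays, a rise of 0.59 ± 0.20 (adjusted p = 0.0217). This call was lost without control vehicle replicate 3 (adjusted p = 0.0542) or 4 (adjusted p = 0.06). In NICD mice Chac1 read 4.96, 4.92, 5.76 and 4.77 against 5.68, 5.63, 4.97 and 6.08. The groups overlapped through replicate 3 of each, and the difference was 0.49 ± 0.25 (adjusted p = 0.13). Without NICD vehicle replicate 3 it was 0.71 (adjusted p = 0.0273), and without NICD DNFB replicate 3 it was 0.70 (adjusted p = 0.0327). Trib3, a pseudokinase that restrains ATF4, gave -0.12 ± 0.13 and -0.27 ± 0.16. Sesn2, a sensor of leucine that restrains mTORC1, gave 0.14 ± 0.18 and 0.45 ± 0.22, and Ppp1r15a, the GADD34 subunit that dephosphorylates eIF2, gave 0.05 ± 0.12 and -0.33 ± 0.14. None of these 3 passed the test in either genotype, although Ppp1r15a did after quantile normalization in NICD mice, at -0.43 (adjusted p = 0.0245), after cyclic loess, at -0.47 (adjusted p = 0.0118), and with trended and robust variances (adjusted p = 0.0377).

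At a limit of at least 2-fold, 2 of the 33 members rose in control mice, Asns and Atf6, and 8 of the 33 in NICD mice. Of all probe sets, 5.57% and 5.56% did, so the control count lay near that share. The 8 were Sdf2l1, Hyou1, Creld2, Pdia6, Calr, Dnajb11, Atf6 and Asns. Arrays of the DNFB group lay wholly above the vehicle arrays for 16 members in control mice and 20 in NICD mice, and wholly below for 1 in each. Of all probe sets, 13.6% and 19.9% lay wholly above and 13.2% and 17.4% wholly below. The 8 tested members with an ER stress element all rose in control mice and 7 of them in NICD mice, with median log2 differences of 0.47 and 0.69. Of the 20 tested members whose window lacked the exact element, 9 and 8 rose and 1 fell, with medians of 0.19 and 0.29. All tested members with the element except Syvn1 are chaperones or folding enzymes, so element and role cannot be told apart. Among chaperones whose window lacked it, Sdf2l1, Dnajb11 and Pdia3 rose in both genotypes and Dnajb9 passed in neither. Derl1, Atf6, Hyou1, Sec61a1 and Manf, which rose in both genotypes, had no window and stand outside this split.

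Wider lists of the same pathway were counted next, 139 genes in 8 lists with no member among them. Of the 139, 78 were higher and 16 lower in control mice, and 77 higher and 9 lower in NICD mice. Of all probe sets, 23.7% and 20% were higher and 23.6% and 18.1% lower. The falls among the 139, and in the folding and degradation lists below, did not exceed those shares. The translocation and early secretory genes moved one way, with 22 of 28 higher and 0 lower in each genotype. Sec24d, a coat protein of ER exit vesicles, rose by 1.16 ± 0.10 in control mice and 1.44 ± 0.12 in NICD mice, and Kdelr3, a receptor that returns ER proteins, by 1.13 ± 0.17 and 1.18 ± 0.21. Of 20 further folding genes, 10 were higher in each genotype, and 3 and 1 were lower. Fkbp11, a prolyl isomerase, rose by 1.34 ± 0.32 and 1.78 ± 0.40, and Pdia5 fell by 1.28 ± 0.14 in control mice. Of 20 further degradation genes, 9 and 7 were higher and 3 and 1 lower. They were led by Ube2j1, a ubiquitin-conjugating enzyme of the ER (1.40 ± 0.12 in control mice), and Vcp, the ATPase that pulls proteins out of the ER (1.08 ± 0.10 and 1.15 ± 0.12).

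The lists linked to ATF4 were counted in the same way. Of 18 cytosolic aminoacyl-tRNA synthetases, which charge transfer RNAs, 16 were higher in control mice and 17 in NICD mice, with 0 lower in each and median log2 differences of 0.95 and 0.95. Rars rose by 1.54 ± 0.12 and 1.37 ± 0.14 and Gars by 1.41 ± 0.08 and 1.34 ± 0.10. Of 16 genes of amino acid uptake and synthesis, 8 and 7 were higher (50% and 43.8%, beside 23.7% and 20% of all probe sets) and 2 and 1 lower. Of these, Slc7a11 and Cbs exceeded the array median on 10 arrays and Cth on 4. Slc7a11, the cystine transporter, averaged 2.60 in control vehicle and 8.63 in control DNFB arrays, and 2.64 and 7.28 in NICD arrays. Its vehicle values lay under the array medians, so the size of its rise is not well measured. Mthfd2, an enzyme of mitochondrial folate metabolism, rose by 2.67 ± 0.20 and 2.38 ± 0.24, and Slc7a1, a transporter of cationic amino acids, by 1.84 ± 0.12 and 1.66 ± 0.15. Of 14 stress genes of the branch, 5 and 4 were higher (35.7% and 28.6%) and 4 and 3 lower (28.6% and 21.4%, beside 23.6% and 18.1% of all probe sets). Ddit4, an inhibitor of mTORC1, fell by 1.06 ± 0.14 and 1.25 ± 0.17, and Cebpg, a dimer partner of ATF4, fell by 0.77 ± 0.11 and 0.55 ± 0.14.

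Of 11 genes of eIF2 control, 5 and 6 were higher and 1 was lower in each genotype. Of all probe sets, 23.7% and 20% were higher and 23.6% and 18.1% lower, so the 1 fall did not exceed that share. Eif2b3, a subunit of the exchange factor of eIF2, rose by 1.17 ± 0.14 and 1.28 ± 0.17, while the adaptor Nck1 fell by 1.10 ± 0.10 and 1.08 ± 0.12. Of 12 further sensor and processing genes, 3 and 4 were higher and 3 and 2 lower (25% and 33.3% higher, beside 23.7% and 20% of all probe sets). Creb3l1, a membrane-bound factor related to ATF6, rose by 1.47 ± 0.17 and 1.61 ± 0.21.

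**Figure D3:**
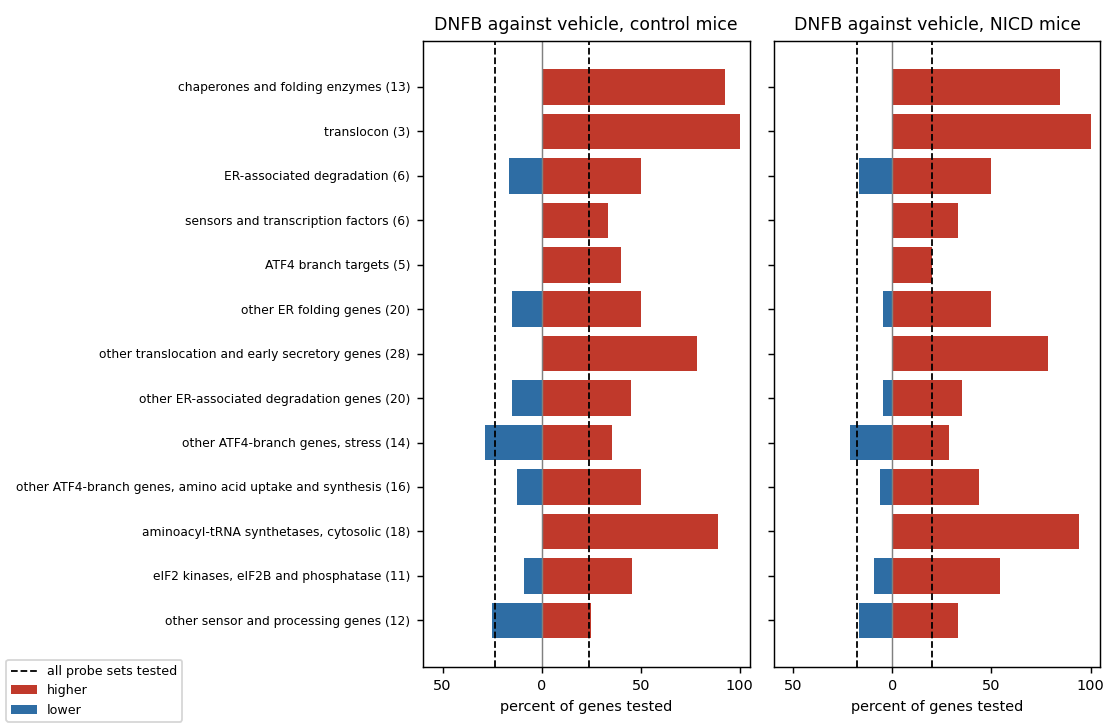
Percent of the genes tested in each list that were higher (red, right of 0) or lower (blue, left of 0) after DNFB, in control and NICD mice, with the number tested in brackets. Dashed lines mark the percent of all probe sets tested; the translocon, chaperones, secretory genes and aminoacyl-tRNA synthetases stand furthest to the right.

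Markers of other cells were set beside these rises. The summed level (log2) of the 10 neutrophil markers ran from 6.56 to 6.86 in control vehicle arrays and from 8.71 to 10.89 in control DNFB arrays, and from 6.52 to 6.75 and from 8.96 to 9.26 in NICD arrays. S100a8 averaged 3.20 and 8.19 in control arrays (vehicle, DNFB) and 3.25 and 7.61 in NICD arrays, and Cxcr2 3.38 and 5.86, and 3.41 and 5.56. Camp averaged 2.49 and 2.41 in control arrays and Ltf 3.26 and 3.22, under the array medians. Of the 10, 3 (Camp, Ltf and Ly6g) did not pass the filter, and S100a8, Retnlg and Mmp8 exceeded the array median on 10, 9 and 5 arrays, so the filter bears on any count of markers that rose. Ptprc, which encodes the CD45 used to remove leukocytes, averaged 3.79 and 5.00 in control arrays (vehicle, DNFB) and 3.30 and 4.86 in NICD arrays. Plasma cells make much of the ER folding machinery, and their joining chain gene Jchain averaged from 2.51 to 2.83 in the 4 groups, under every array median. Mzb1, a plasma cell folding factor, averaged 4.05 and 4.13 in control arrays and 3.5 and 3.56 in NICD arrays. Others of the list had higher means with DNFB. Sdc1 averaged 7.66 and 8.19 in control arrays and 7.53 and 7.59 in NICD arrays. Irf4 averaged 3.28 and 3.89, and 3.11 and 3.76, and Prdm1 7.55 and 7.67, and 7.17 and 7.76. Tnfrsf17 averaged 2.74 and 2.92, and 2.85 and 3.01, whereas Pou2af1 averaged 3.43 and 3.33, and 3.44 and 3.25. The summed level of 8 plasma cell markers, Fkbp11 among them, ran from 8.74 to 9.15 in control vehicle and from 9.28 to 9.60 in control DNFB arrays, and from 8.58 to 8.84 and from 9.11 to 9.29 in NICD arrays. That of 5 platelet markers ran from 6.58 to 8.0 and from 8.38 to 10.07 in control arrays, and from 6.08 to 6.58 and from 7.80 to 8.69 in NICD arrays. That of 10 macrophage markers ran from 7.57 to 8.32 and from 8.69 to 9.28, and from 7.62 to 7.93 and from 8.51 to 9.11. Of the 12 endothelial markers, 9 fell and 0 rose in control mice, and 6 fell and 2 rose in NICD mice. In control mice Tek, a receptor for angiopoietins, averaged 9.96 in vehicle and 7.99 in DNFB arrays, Vwf (von Willebrand factor) 10.49 and 9.14, and the junction gene Cldn5 10.99 and 9.64. Kdr, a VEGF receptor, averaged 10.88 and 10.17, Pecam1 (CD31) 11.72 and 11.51, and Cdh5, which did not pass the test, 11.77 and 11.93. In NICD mice Tek averaged 9.73 and 8.28, Vwf 10.33 and 9.03, and Cldn5 11.27 and 10.12, while Flt1 and Eng rose by 0.49 ± 0.10 and 0.55 ± 0.09. Of the keratinocyte keratins, Krt16 averaged 2.34 and 8.28 in control arrays and 2.97 and 8.07 in NICD arrays. Krt6a averaged 3.52 and 8.34, and 3.6 and 8.42, and Krt17 5.28 and 8.89, and 5.68 and 9.0. Krt14 averaged 11.08 and 11.64, and 11.08 and 11.30, whereas Krt15 averaged 8.29 and 6.26, and 8.54 and 6.75. Of 10 keratinocyte markers, 4 and 3 rose and 2 and 1 fell, and of 8 fibroblast markers, 4 and 3 rose and 0 and 2 fell. Beside them, 23.7% and 20% of all probe sets rose and 23.6% and 18.1% fell, so the keratinocyte falls did not exceed that share. Krt16 exceeded the array median on 11 arrays and Krt6a on 15, so the filter bears on this count too. Of 10 pericyte and smooth muscle markers, 9 and 7 fell, and their summed level ran from 12.83 to 13.13 in control vehicle and from 12.04 to 12.74 in control DNFB arrays. The part of these cells in the rises was not tested.

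Whether NICD changed the response was asked through the difference of the 2 DNFB effects, NICD minus control. At an adjusted p under 0.05, 0 of the 33 members passed in limma, beside 0.0134% of all probe sets. At an unadjusted p under 0.05, 6 members passed, all 6 with the larger rise in NICD mice, and 1580 of 14886 probe sets did. The direction of the 1580 was not counted. The difference was positive for 25 of the 33 members and for 85 of the 139 genes of the wider lists. Its median was 0.15 for the members, beside 0.02 for all probe sets. Genes of 1 pathway are not independent of each other, so these counts are no test, and a larger response in NICD mice was not shown. Sdf2l1 had the largest difference, 1.43 ± 0.37 (95% interval 0.66 to 2.21, adjusted p = 0.161). Calr gave 0.61 ± 0.16 (interval 0.28 to 0.94, adjusted p = 0.165), Hyou1 0.76 ± 0.28 (interval 0.16 to 1.35, adjusted p = 0.339) and Creld2 0.60 ± 0.20 (interval 0.18 to 1.02, adjusted p = 0.288). Dnajb11 and Hspa5 were the other members of the 6, with 0.44 ± 0.19 and 0.28 ± 0.13.

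For other members the 95% interval of the difference included 0. Canx gave 0.02 (interval -0.22 to 0.26), Derl1 -0.07 (interval -0.40 to 0.26) and Herpud1 0.09 (interval -0.21 to 0.40). For Asns it was 0.22 (interval -0.15 to 0.59), and for Atf6 0.26 (interval -0.02 to 0.54). Ppp1r15a had the most negative difference, -0.38 ± 0.18 (adjusted p = 0.475). Control DNFB replicate 6 held the highest value of 8 chaperones, Sdf2l1 among them, so leaving it out must raise the difference of Sdf2l1. Without this array, that difference was 1.64 (adjusted p = 0.0322), and Sdf2l1 was then the 1 member past the threshold. Leaving out any other array brought no member past it.

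Levels in NICD mice were then set against control mice within each treatment, where the scale of the arrays matters. The median difference of all probe sets, NICD minus control, was -0.28 in vehicle ears and -0.27 in DNFB ears as deposited, and 0.02 in each after every array was centred on its median. In vehicle ears, 0 of the 33 members were higher and 16 lower as deposited, beside 2.88% and 33.0% of all probe sets. After centring, 3 were higher and 6 lower, beside 11.3% and 7.40%. After quantile normalization, 1 was higher and 8 lower, beside 6.85% and 9.35%. The median of the members was -0.27 as deposited, close to that of all probe sets.

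The 5 members that were lower in vehicle ears under all 4 scalings run (as deposited, centred, quantile, cyclic loess) were Hspa5, Calr, Manf, Asns and Sesn2. Hspa5 averaged 9.99 in control and 9.07 in NICD vehicle arrays, a difference of -0.91 ± 0.09 as deposited (adjusted p = 2.01e-06) and -0.61 after centring (adjusted p = 0.000442). Asns averaged 7.11 and 6.00, a difference of -1.11 as deposited and -0.80 after centring. For Calr the centred difference was -0.51, for Manf -0.37 and for Sesn2 -0.68. The groups of these 5 genes did not overlap as deposited, which holds of 22.2% of all probe sets in that direction. Sec61a1 passed as lower in vehicle ears as deposited, at -0.27 ± 0.10, and was at 0.04 after centring. Canx, Ssr1 and Edem1 were higher after centring, by 0.36, 0.48 and 0.44, and none of these 3 passed as deposited. The second probe set of Ssr1 gave 0.64 ± 0.11 as deposited (adjusted p = 0.000401) against 0.18 ± 0.13 for the first. This second probe set averaged 3.77 over the 20 arrays, near the array medians, and the first 6.46.

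In DNFB ears, 0 members were higher and 12 lower as deposited, beside 5.45% and 35.1% of all probe sets. After centring, 9 were higher and 3 lower, beside 16.5% and 10.8%, and after quantile normalization 2 were higher and 4 lower, beside 11.9% and 11.9%. Hspa5 and Asns were lower under all 4 scalings, with centred differences of -0.34 and -0.59. Derl2 was lower as deposited and after centring, at -0.77 and -0.48. The 9 that were higher after centring were Canx, Creld2, Edem1, Pdia3, Pdia6, Sdf2l1, Sec61b, Ssr1 and Xbp1, with Sdf2l1 at 0.76 and Edem1 at 0.58. Hsp90b1 was lower as deposited, at -0.28 ± 0.11, and at 0.02 after centring. The comparisons in vehicle and DNFB ears share arrays with the DNFB effects above, and sex differs between their groups.

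**Figure D4:**
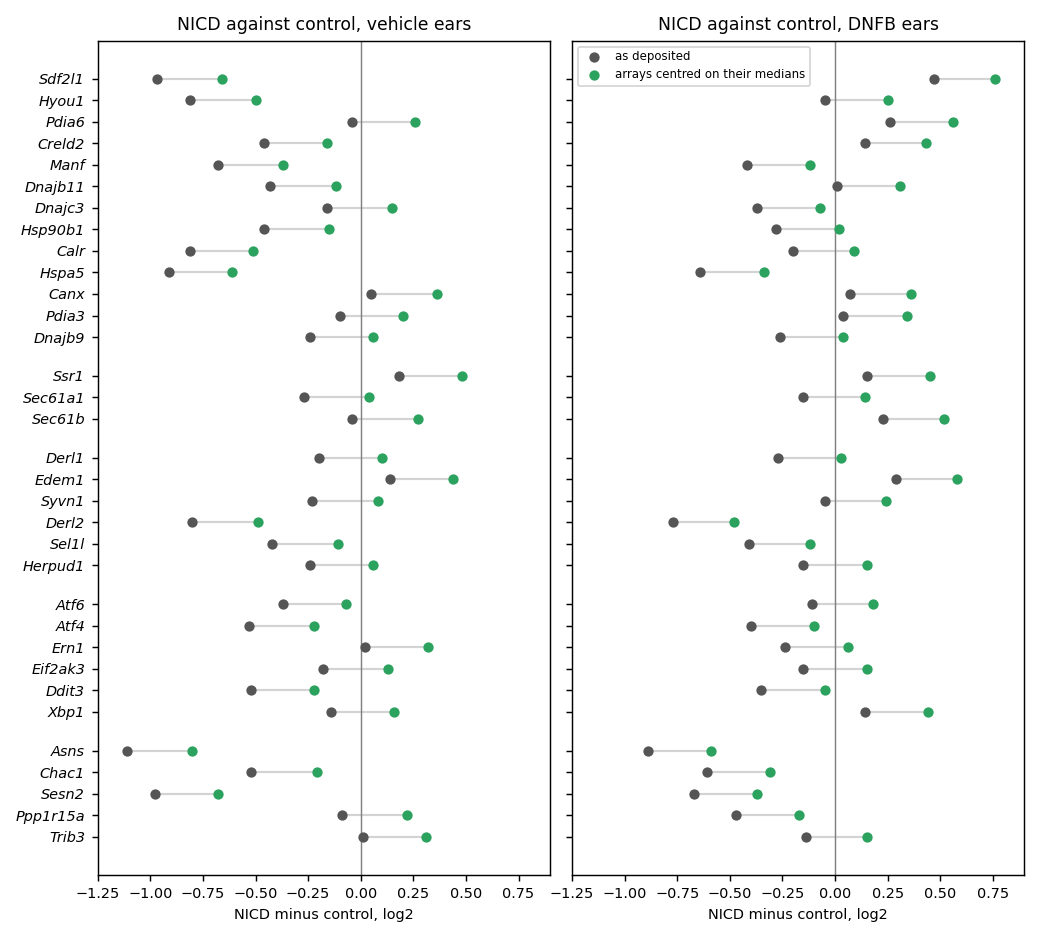
Log2 difference, NICD minus control, of the 33 genes in vehicle ears (left) and DNFB ears (right), as deposited (grey) and after centring each array on its median (green), with a line joining the 2 values of a gene. Centring moved every gene to the right by about the same amount; Hspa5, Derl2 and Asns lie left of 0 under both scalings in both panels.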

How the data were processed

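RNA of sorted endothelial cells was hybridised to 20 arrays, and the deposited table holds log2 values per probe set that the authors made by robust multi-array averaging (RMA) in Affymetrix Expression Console, per the submitters' processing notes. Versions and options are not given in the sources used here, and no scanner intensities were used. RMA shrinks small differences and compresses large ones, and the lowest deposited value was at most 0.590 on each control array but at least 1.18 on each NICD array, so the genotypes may have been normalized apart. Of 41345 probe sets, 23521 carried 1 gene symbol, 1814 several and 16010 none in the platform annotation. Kept were the 14886 with 1 symbol that exceeded the median of at least 4 arrays. The probe set of highest mean stood for a gene with several, as for 4 members.

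With limma 3.58.1 (R 4.3.3), the 4 group means were estimated from the 20 arrays together, and moderated two-sided tests were adjusted over all probe sets kept (Benjamini-Hochberg), with a threshold of 0.05. Errors are 1 SE unless SD is named. Array number limits the precision, and the correlation between arrays of a group ran from 0.944 to 0.981. The script was tested on simulated data. Alternatives were other filters, scalings, variances, array weights, replicate blocks, a 2-fold limit, the second probe set and each array left out. Sex could not be fitted beside genotype.

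Every member was named. From each further list, up to 4 genes past the threshold with the largest differences could be named. Members and lists were chosen with earlier results of these data known. Promoters were RefSeq windows on GRCm38.p6. Plots used matplotlib 3.10.9 and Python 3.11.15.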

Additional observations from a re-analysis of the deposited data

Results flagged for a closer look

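Of 136 groups of 4 or 6 arrays, 34 genes in 4 groups each, 9 held an array whose gap to the nearest other array was large for the group's range (Dixon's criterion), and chance flags about 1 in 20 groups. In control DNFB arrays, Dnajc3 was low on replicate 2 at 8.37, where the next array read 8.54. In control vehicle arrays, Eif2ak3 was high on replicate 5 at 6.06 (next 5.64). In NICD vehicle arrays, Hyou1 was high on replicate 3 at 6.24 (next 5.74) and Atf6 on replicate 4 at 8.70 (next 8.38). The title and description of that last array conflict on the treatment. In NICD DNFB arrays, Ssr1 was high on replicate 3 at 7.09 (next 6.94) and Ppp1r15a low on it at 9.53 (next 10.01). On replicate 4 of that group, Edem1 was low at 7.97 (next 8.14), Sel1l low at 6.20 (next 6.82) and Atf4 high at 11.32 (next 11.19).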

How the results depend on the processing

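The counts of members called moved most in the genotype comparisons. For DNFB in control mice (22 higher, 1 lower), the lower count was 2 with array weights, the stricter filter, and the replicate block by number or as a random block, and 3 with cyclic loess, quantile normalization, trended and robust variances, and the replicate block within genotype. The higher count was 20 with no filter or only the groups compared, and 21 with array weights, cyclic loess and both fixed replicate blocks. At a 2-fold limit the counts were 2 and 0. For DNFB in NICD mice (20 and 1), the lower count was 2 with cyclic loess, quantile normalization and trended variances. The higher count was 18 with cyclic loess and 19 with quantile normalization or only the groups compared, and at 2-fold the counts were 8 and 0. For NICD against control in vehicle ears (0 and 16), the counts were 3 and 6 after centring, 1 and 8 after cyclic loess, and 1 and 8 after quantile normalization. The higher count was 1 with second probe sets, and the lower count 1 at 2-fold. In DNFB ears (0 and 12), they were 9 and 3 after centring, 3 and 5 after cyclic loess, and 2 and 4 after quantile normalization. There the higher count was 1 with array weights, trended variances or second probe sets and 3 with the replicate block by number, and the lower count was 0 at 2-fold. Centring turned the sign of Sec61a1 in vehicle ears (0.04) and of Hsp90b1 in DNFB ears (0.02). Without 1 array, the higher and lower counts ran from 20 to 22 and 1 to 2 (DNFB, control), 19 to 21 and 1 to 1 (DNFB, NICD), 0 to 1 and 0 to 0 (difference of effects), 0 to 1 and 14 to 17 (genotype, vehicle), and 0 to 2 and 8 to 13 (genotype, DNFB). Same-numbered arrays of a genotype correlated in their deviations at 0.0418 to 0.269, all positive, with 5 of 10 over 0.1, and 6 of 10 numbers matched best with their own. This is a hint from the data, not the design. The labels give no pairing, and since not every correlation exceeded 0.1 the numbers were not used as pairs. The replicate block within genotype ended the calls of Syvn1 in control mice (adjusted p = 0.0694) and Derl1 in NICD mice (0.0613), and made calls of Xbp1 (0.0338) and Ddit3 (0.0421) in control mice and of Sesn2 in NICD mice (0.45, adjusted p = 0.0172). For DNFB in control mice, the block by number ended the Syvn1 call (0.062) and made one of Xbp1 (0.0291), and the random block made one of Xbp1 (0.0367). Between genotypes, the block by number ended lower calls of Dnajb11, Creld2, Sec61a1 and Sel1l in vehicle ears (adjusted p from 0.0611 to 0.102). In DNFB ears it ended those of Hsp90b1, Dnajc3, Sel1l and Chac1 (from 0.0621 to 0.149). There it made higher calls of Sdf2l1 (0.033), Pdia6 (0.0376) and Edem1 (0.0334). The cause of these moves was not tested.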
